A study of Sus scrofa with 6 samples.

Results

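The 82 genes described here carry the symbols of proteins of the cytosolic ribosome and of their paralogs. They were taken from the 29861 genes of a porcine oocyte RNA-seq table by their symbols, as RPL or RPS followed by a number and an optional A, X, L or L1, together with RPLP0, RPLP1, RPLP2 and RPSA. By symbol, 50 of these genes were assigned to the large and 32 to the small subunit. Whether each paralog, such as RPL7L1, is part of the ribosome was not tested. The same table holds 77 genes for proteins of the mitochondrial ribosome, which served for comparison. The samples were pools of porcine oocytes, with 2 samples each from control oocytes, from oocytes under heat stress and from oocytes under heat stress+NMN, where nicotinamide mononucleotide, a precursor of NAD, was added to the medium. The labels name no genetic change in any group. The labels give the GV (germinal vesicle) stage and 24 hours for all 6 samples, whereas the methods describe metaphase II oocytes collected after maturation in vitro. Neither the labels nor the methods say whether the 2 samples of a group came from separate collections, so the P-values measure only the spread between these samples, which may be technical.

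The cytosolic ribosome consists of a small subunit, which reads the mRNA, and a large subunit, which joins amino acids and holds the exit tunnel for the new protein. A growing oocyte accumulates ribosomes and then ceases to transcribe, so that maturation and the first divisions run on stored ribosomes and stored mRNAs. The mRNAs of ribosomal proteins classically begin with a cytosine followed by a run of pyrimidines, the terminal oligopyrimidine (TOP) tract, through which LARP1 and mTOR signalling adjust their translation and stability. Genes for ribosomal proteins have also left many processed copies in mammalian genomes, made by reverse transcription of the spliced mRNA.

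The annotated start of the longest transcript is shown for 7 members, since the TOP tract is the feature that ribosomal protein mRNAs are known to share. Each stretch runs 5′ to 3′ on the strand of the gene, from 30 bases before to 30 bases after the RefSeq start of the Sscrofa11.1 build, which is the build of the deposited coordinates. Capitals mark the first C followed by at least 4 pyrimidines that begins between 10 bases before and 15 bases after the start, with the pyrimidines that follow it. RPL10, RPL7, RPS20, RPL37 and RPS25 are members with a tract that were lower in NMN-supplemented than in control oocytes at an unadjusted P under 0.05 (limma). RPL10A stands for the 5 of 17 lower members in that comparison that have no tract, and RPL15 is the most abundant member.
RPL10 (chrX:124927219-124927278, + strand): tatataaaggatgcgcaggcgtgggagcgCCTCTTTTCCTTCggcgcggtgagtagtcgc
RPL7 (chr4:62602400-62602459, + strand): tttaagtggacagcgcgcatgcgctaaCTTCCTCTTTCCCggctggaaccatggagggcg
RPS20 (chr4:75762179-75762238, + strand): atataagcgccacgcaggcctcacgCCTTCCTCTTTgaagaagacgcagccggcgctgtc
RPL37 (chr16:25803497-25803556, - strand): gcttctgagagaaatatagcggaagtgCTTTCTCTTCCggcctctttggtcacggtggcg
RPS25 (chr9:46242145-46242204, - strand): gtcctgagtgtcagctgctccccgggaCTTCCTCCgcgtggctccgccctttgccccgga
RPL10A (chr7:31327733-31327792, + strand): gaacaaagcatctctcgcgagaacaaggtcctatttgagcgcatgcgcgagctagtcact
RPL15 (chr13:10716359-10716418, + strand): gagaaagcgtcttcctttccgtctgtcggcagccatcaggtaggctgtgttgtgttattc
In RPL10A and RPL15 no such tract begins in that range of the start of the longest transcript. RPL15 has 2 annotated transcripts, and its gene is annotated from base 10716373, upstream of that start. The printed stretch holds the unmarked pyrimidines cttcctttcc around that base, so the same rule would mark a tract at the upstream start. Over all members, 44 of 82 (53.7%) had one, against 34.7% of the 20634 protein-coding genes read in the same way. The letters CTTCCG, searched on both strands from 250 bases before to 50 bases after the start, occurred in 52.4% of the members and in 19.2% of all genes, and TATAAA in 12.2% and 11.7%. Some of these matches overlap one another, since CTTCCG can overlap the end of a pyrimidine tract. The annotated start need not be the start used in oocytes.

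The members were low in these samples. Their values are FPKM, fragments per kilobase of transcript, scaled to the mapped fragments of the library, which allow genes to be compared per length. Of the 82 members, 37 (45.1%) reached 1 FPKM on average, 44 lay above 0 but under 1, and RPL10L, the autosomal relative of the X-linked RPL10, was listed at 0 in every sample. At least 1 sample was listed at 0 for 22 members. The median member stood at the 82.7th percentile of all genes of the table. A mean FPKM of at least 5 was reached by 10 members. The 37 members with a mean of at least 1 comprised 24 of the 50 large-subunit genes (48.0%) and 13 of the 32 small-subunit genes (40.6%). The median longest transcript was 902 nt for members at or above 1 FPKM and 626 nt for those below it. Across members the rank correlation of mean FPKM with transcript length was 0.152, given as a description over 82 genes that share the same 6 samples.

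RPL15 stood alone at the top. It encodes a protein of the large subunit that is needed for processing of its rRNA, and it lies on chromosome 13. Its FPKM was 39.8 and 33.5 in control oocytes, 51.6 and 49.0 under heat stress and 44.2 and 47.3 with NMN, and both control samples were below the other 4. RPLP1, an acidic protein of the stalk that recruits translation factors, came next with 14.8 and 19.7 in control oocytes, 8.19 and 7.53 under heat stress and 7.41 and 4.62 with NMN. The range of RPL15 and that of RPLP1 did not touch in any group. RPL23A, which sits at the mouth of the exit tunnel, followed with 11.0 and 10.8 in control oocytes, 6.45 and 9.26 under heat stress and 6.97 and 4.47 with NMN. RPL26L1 (mean 7.99) and RPL10A (mean 6.86), which forms the mobile stalk beside the exit of tRNA, completed the leading large-subunit genes, and the ranges of RPL23A, RPL26L1 and RPL10A overlapped.

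Among small-subunit genes, RPS2, which lines the entry channel of the mRNA, had the highest mean. Its FPKM was 7.16 and 8.06 in control oocytes, 5.16 and 5.21 under heat stress and 7.43 and 5.36 with NMN, in a listed locus that it shared with 3 other genes. RPS20, in the head of the small subunit, had 11.0 and 9.06 in control oocytes, 3.60 and 7.23 under heat stress and 1.82 and 5.04 with NMN. RPS2 and RPS20 (means 6.40 and 6.29) could not be ordered beyond their spread. RPS15 was held up by 1 library, with 14.3 in heat stress sample 1 and between 3.06 and 4.82 in the other 5. RPS24, which is mutated in some families with Diamond-Blackfan anaemia, had a mean of 4.64, and RPSA, also known as the laminin receptor, one of 3.23. The plot of the tested members in every sample shows that most genes spanned less than a 10-fold range.

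**Figure D1:**
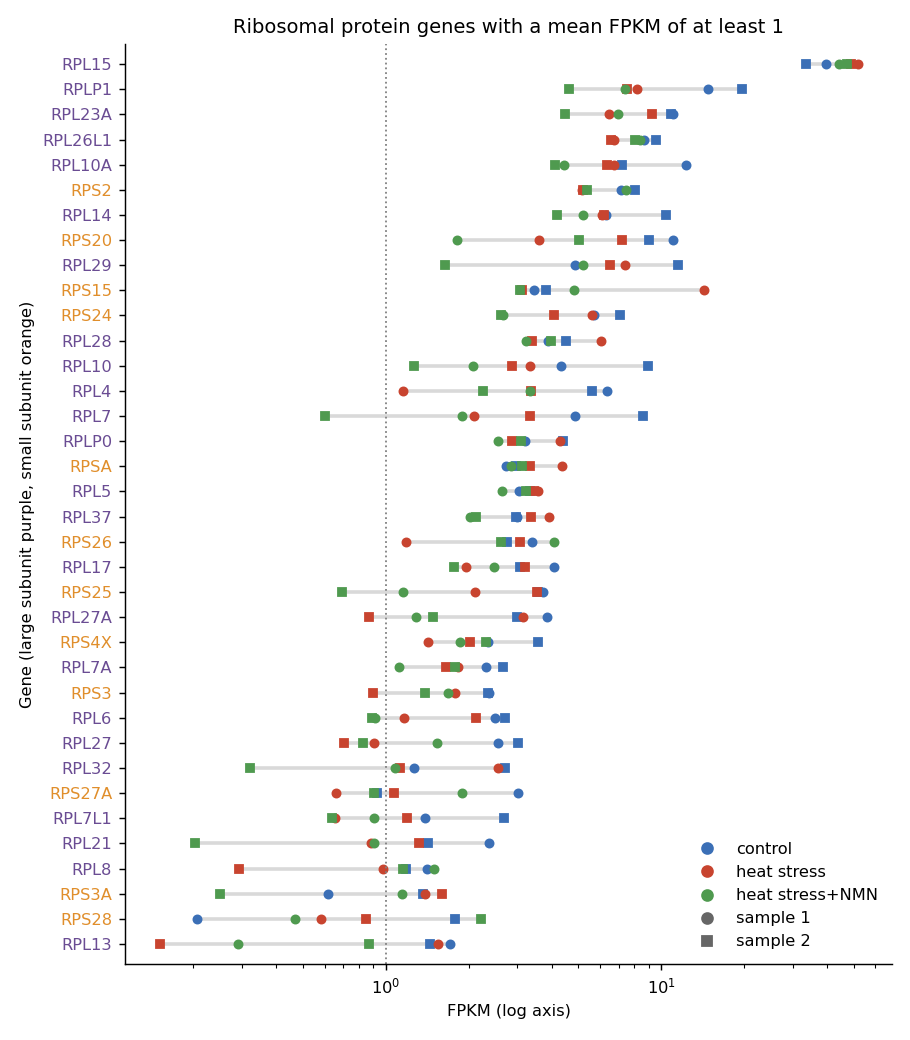
FPKM (log axis) of 36 of the 37 ribosomal protein genes with a mean of at least 1, ordered by their mean, with large-subunit genes in purple and small-subunit genes in orange letters; circles are sample 1 and squares sample 2 of each group, and the grey bar joins the lowest and highest sample. RPL15 lies to the right of all others at 33.5 to 51.6, and for RPLP1 the control samples (14.8 and 19.7) lie to the right of the other 4.

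The members on either side of the limit of 1 FPKM differed little in level. Just above it were RPL13 (mean 1.0), RPS28 (1.02) and RPS3A (1.06), and just below it RPL11 (0.961), RPS23 (0.948) and RPS6 (0.943). RPS6 is the substrate of the S6 kinases, and RPL11 binds MDM2 when it is free of the ribosome. RPL11 had 1.45 and 1.78 in control oocytes, 0.166 and 1.21 under heat stress and 0.786 and 0.383 with NMN. RPS6 had 1.77 and 1.47 in control oocytes, 0.434 and 1.30 under heat stress and 0.249 and 0.440 with NMN. In both genes the control samples were the 2 highest.

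For several proteins the paralog and the parent gene differed widely. RPL26L1 had between 6.56 and 9.54 FPKM in the 6 samples, while RPL26, which it resembles, had between 0 and 0.531 in a listed locus shared by 108 genes. RPL7L1 (mean 1.24) lay below RPL7 (3.57), RPL22L1 (0.138) below RPL22 (0.410), and RPL3L (0.0288), which is known from muscle, below RPL3 (0.688). RPS27L (0.667) lay above RPS27 (0.142). The ranges over the 6 samples did not overlap for RPL26L1 and RPL26, RPL3 and RPL3L, or RPL10 and RPL10L, and they overlapped for the other pairs. How fragments were shared between a paralog and its parent gene was not tested.

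Much more signal than in the members was listed for copies that are nearly identical to them. A copy was defined as a gene of the table outside the 82 members, so matches between members were not searched. Its spliced sequence had to match the longest transcript of a member on the same strand, with at least 90% identity over at least 50% of the shorter sequence. This gave 124 copies of 53 members. Of the copies, 100 lie on 1 exon, 105 are annotated as pseudogenes and 19 as protein coding, while RPL10L was the 1 member without an intron. In 56 copies all samples were listed at 0, and 25 copies had a mean FPKM of at least 1, of which 23 lie on 1 exon. A mean above 10 FPKM was found for 13 copies and for 2 members. The summed FPKM of the copies was 1149 and 1746 in control oocytes, 1273 and 1087 under heat stress and 1164 and 877 with NMN, or 5.19 to 7.39 times that of the 82 members. For 22 members the copies together exceeded the member, and 14 members below 1 FPKM had a copy at 1 or above. The copies named below were chosen after their values were seen, as those with the highest means.

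To show how little separates them, a stretch of 60 bases of the coding part is given for 3 members and for the most abundant copy of each, read from Sscrofa11.1. The 2 capitals are the bases on either side of an exon junction of the member, between which its gene holds an intron and the copy does not.
RPL35A (chr13, + strand, junction bases 134589371 and 134590268): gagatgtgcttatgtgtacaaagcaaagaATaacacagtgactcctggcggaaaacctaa
LOC100519675 (chr9:19765090-19765149, + strand): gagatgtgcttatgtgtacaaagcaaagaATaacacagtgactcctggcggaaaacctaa
RPLP1 (chr1, + strand, junction bases 167297099 and 167297801): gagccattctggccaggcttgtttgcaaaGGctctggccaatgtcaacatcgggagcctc
LOC100625510 (chr18:50248810-50248869, + strand): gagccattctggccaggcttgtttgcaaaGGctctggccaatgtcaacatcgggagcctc
RPL7A (chr1, + strand, junction bases 272964411 and 272964601): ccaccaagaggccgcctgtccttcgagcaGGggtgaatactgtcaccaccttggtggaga
LOC100525692 (chr3:64879202-64879261, - strand): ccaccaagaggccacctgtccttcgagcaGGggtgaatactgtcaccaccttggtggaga
The first 2 pairs had 0 mismatches in these bases and the last pair 1, G14A, counted from 1 at the 5′ end with the member's base first. In the genome the member's stretch is broken by an intron of 896, 701 and 189 nt, respectively. A fragment that crosses such a junction matches the copy without a gap and the member only with one, so the authors' counting could assign it to either. How fragments were shared between members and copies was not tested, and the level of a member with an abundant copy is therefore uncertain.

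The copy of RPL35A, LOC100519675, held more FPKM than all 82 members together in every sample. It had 342 and 528 in control oocytes, 597 and 423 under heat stress and 594 and 408 with NMN, and the groups overlapped. RPL35A itself had between 0.402 and 1.01. LOC100625510, the copy of RPLP1, had 195 and 344 in control oocytes, 175 and 185 under heat stress and 128 and 124 with NMN, so its 2 control samples were the highest, as in RPLP1. LOC100525692, the copy of RPL7A, had 118 and 129 in control oocytes, 83.3 and 75.4 under heat stress and 74.3 and 47.9 with NMN, with all control samples above the others. Further copies of high mean FPKM matched RPS23 (68.0), RPS21 (63.4), RPL39 (61.3), which lines the exit tunnel, and RPL14 (48.6). Each of these 4 members had a mean below its copy, from 0.554 for RPS21 to 6.40 for RPL14.

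**Figure D2:**
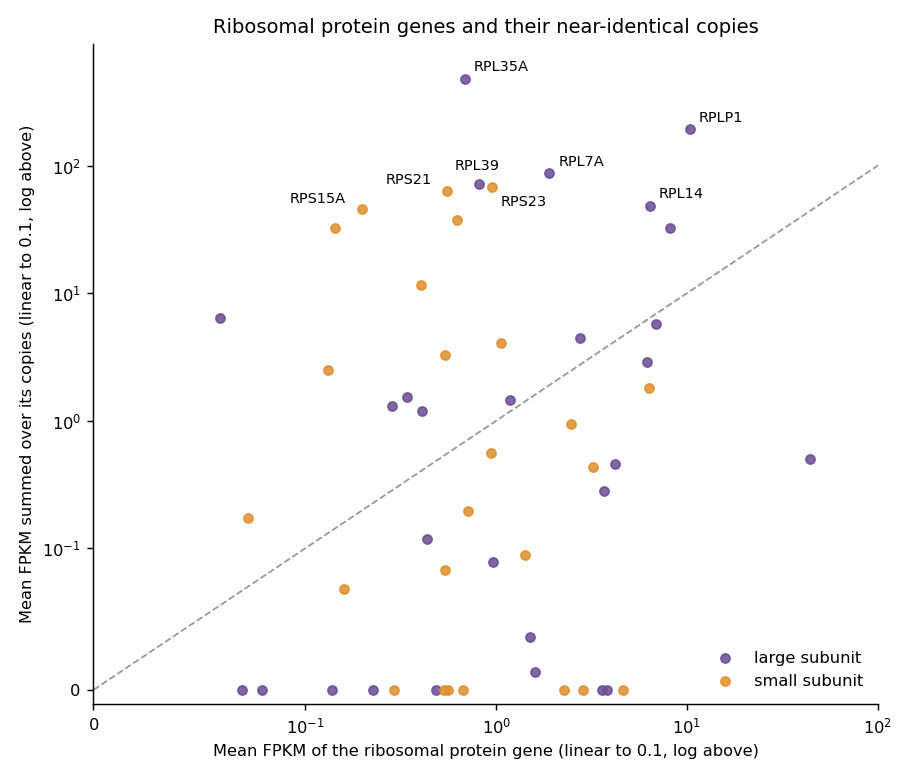
Mean FPKM over the 6 samples of each of the 53 ribosomal protein genes with a copy (x axis) and the summed mean FPKM of its copies (y axis), both axes linear up to 0.1 and logarithmic above; the dashed line marks equal levels. For 22 genes the copies lie above the line, with RPL35A (0.684 against 482) the farthest from it.

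The summed FPKM of the 82 members was 221 and 244 in control oocytes, 188 and 181 under heat stress and 158 and 143 with NMN, so the 3 groups did not overlap and followed each other in that order. The group means were 233 ± 16.2, 185 ± 5.06 and 150 ± 10.6 (SD, n = 2). With the copies included, the sums were 1371 and 1990 in control oocytes, 1461 and 1268 under heat stress and 1321 and 1020 with NMN. The heat-stressed samples then overlapped with both other groups, and the NMN-supplemented samples stayed below the control samples. Bulk values cannot tell fewer cells of a type from less RNA per cell, and FPKM are shares of a library. The mitochondrially encoded genes took 66.4% and 61.7% of all FPKM in control oocytes, 62.4% and 71.6% under heat stress and 74.2% and 74.7% with NMN, and the part of this in the sums was not tested. As a share of the FPKM of nuclear genes, leaving out the pseudogene LOC100513953, which was above 0 in heat stress sample 1 alone, the members took 0.369% and 0.389% in control oocytes, 0.274% and 0.313% under heat stress and 0.255% and 0.240% with NMN, again without overlap. The number of members listed at 0 was 1 and 4 in control oocytes, 13 and 6 under heat stress and 7 and 15 with NMN. The 2 samples with the most zeros, heat stress 1 and heat stress+NMN 2, also had the lowest depth relative to control 1 (0.732 and 0.785) as estimated from the spacing of low FPKM values, and its part in the zeros was not tested.

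Both subunits had less FPKM in the treated groups. The large subunit summed to 161 and 179 in control oocytes, 138 and 134 under heat stress and 118 and 106 with NMN. The small subunit summed to 60.9 and 65.1 in control oocytes, 50.4 and 46.9 under heat stress and 39.5 and 36.4 with NMN. Their ratio was 2.64 and 2.75, 2.73 and 2.86, and 2.99 and 2.91 in the same order, and only the NMN-supplemented samples lay above both other groups. This order rested on RPL15, whose share of all member FPKM was 18.0% and 13.7% in control oocytes, 27.4% and 27.0% under heat stress and 28.1% and 33.2% with NMN. Without RPL15 the ratio was 1.98 and 2.24 in control oocytes, 1.71 and 1.82 under heat stress and 1.87 and 1.61 with NMN, and the control samples were then the highest. An exact permutation test (two-sided) of 2 against 2 samples has 0.333 as its smallest P, so these sums were not tested.

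**Figure D3:**
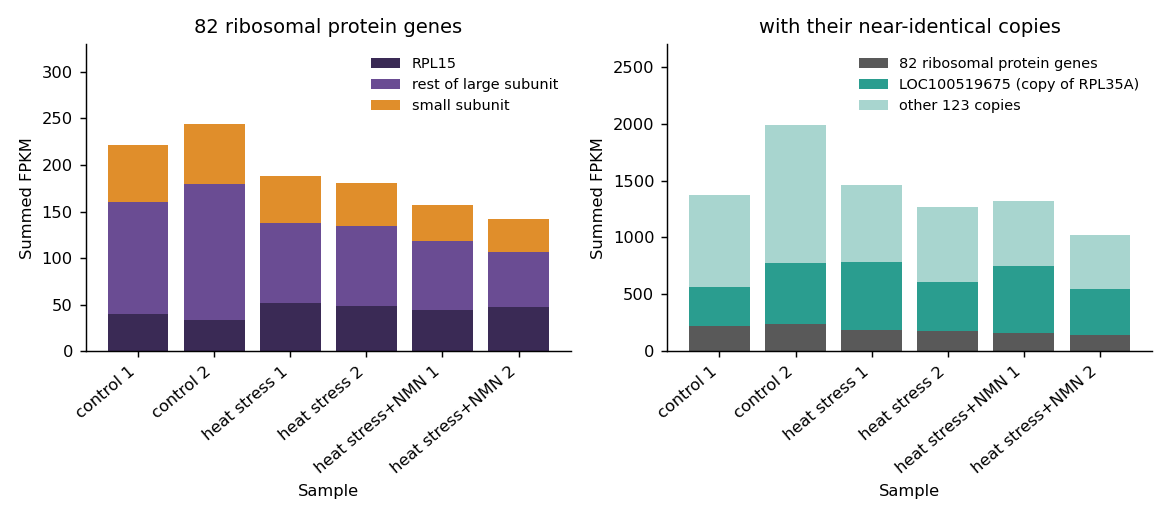
Summed FPKM in each of the 6 samples; the left bars stack RPL15, the rest of the large subunit and the small subunit, and the right bars stack the 82 ribosomal protein genes, LOC100519675 and the other 123 copies. The left bars reach 221 and 244 in control and 158 and 143 in heat stress+NMN, and on the right the copies are 5.19 to 7.39 times the ribosomal protein genes.

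For the effect of heat stress, the 37 members with a mean FPKM of at least 1 were compared between heat-stressed and control oocytes in a limma model of all 4713 genes at that level. Of the 37, 10 (27.0%) were lower at an unadjusted P under 0.05, where 10.1% of all tested genes were lower. Among these were RPLP1, RPL4, RPL7, RPL10, RPL26L1 and RPL27 of the large subunit and RPS2, RPS3 and RPS4X of the small one. RPL15 was the 1 member that was higher, where 12.7% of all tested genes were. With Benjamini-Hochberg adjustment over the 4713 genes in limma, 0 members and 0 genes in all passed 0.05, so these calls hold at the unadjusted P only. The log2 fold change was negative in 30 of 37 members (81.1%) and in 44.9% of all tested genes, with medians of −0.45 and 0.049.

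The largest declines under heat stress were in RPL4, RPL27, RPL7 and RPLP1. RPL4, which reaches into the exit tunnel, had 6.37 and 5.60 FPKM in control oocytes and 1.15 and 3.38 under heat stress, a log2 fold change of −1.18 ± 0.35 (SE; limma, adjusted P = 0.160). RPL27 had 2.56 and 3.01 in control oocytes and 0.908 and 0.704 under heat stress, a log2 fold change of −1.07 ± 0.19 (limma, adjusted P = 0.111). In each of these genes both control samples were above both heat-stressed samples. RPLP1 changed by −1.03 ± 0.23 (limma, adjusted P = 0.127) and RPL7 by −1.04 ± 0.38 (adjusted P = 0.196) on the same scale. The calls of RPL27 and RPLP1 held with any 1 of the 6 samples left out, and that of RPLP1 was lost when its copies were added (−0.53; limma, adjusted P = 0.279). Those of RPL4, RPL7, RPL10, RPL15, RPL26L1, RPS2, RPS3 and RPS4X were each lost without at least 1 sample, and all of these but RPL26L1 were lost without control sample 2, where RPL7 and RPL10 had log2 fold changes of −0.69 and −0.38. RPS3, near the entry of the mRNA channel, and RPS4X, from the X chromosome, changed by −0.55 ± 0.21 and −0.53 ± 0.21. RPL15 moved the other way by 0.45 ± 0.13 (limma, adjusted P = 0.149).

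The members below 1 FPKM were outside the model. Among the 44 with a mean above 0 and under 1, both heat-stressed samples were below both control samples in 22 (50%), against 18.6% of all genes in that range of means, and the reverse held for 0 members and 13.2% of all genes. RPL37A, for instance, had 0.604 and 1.37 in control and was listed at 0 in both heat-stressed samples, and RPL19 had 0.998 and 1.0 in control oocytes and 0.0280 and 0.311 under heat stress. These 2 were picked after their values were seen. Here and in the comparisons below, the 44 members (median of 0.373 FPKM) were not matched in level to the other genes of that range. Heat stress sample 1 had the lowest relative depth (0.732). The part of level and depth in these counts was not tested.

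NMN-supplemented oocytes were then compared with heat-stressed ones, for the effect of NMN under heat. In this comparison 3 of 37 members (8.11%) were lower at an unadjusted P under 0.05, against 6.45% of all tested genes, and 0 were higher, against 7.15% of all tested genes. The share of members lower was near that of all genes with every sample in. Without heat stress sample 2, or without heat stress+NMN sample 1, 9 members (24.3%) were lower, against 7.7% and 5.05% of all tested genes. In limma 0 members and 0 genes in all passed an adjusted P of 0.05. The log2 fold change was negative in 27 of 37 members (73.0%) and in 38.9% of all tested genes, with medians of −0.24 and 0.078, which became 0.0388 and 0.354 when all samples were scaled to the same summed nuclear FPKM. RPL26L1 was 1 member with a positive difference, 6.74 and 6.56 FPKM under heat stress and 8.40 and 8.04 with NMN, which did not pass (0.27 ± 0.11; limma, adjusted P = 0.360). RPL8 (0.54 ± 0.23) and RPS26 (0.53 ± 0.33) had the highest log2 fold changes, which did not pass either.

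The 3 members that fell were RPL37, RPS24 and RPS25. RPL37 had 3.91 and 3.37 FPKM under heat stress and 2.03 and 2.12 with NMN, a log2 fold change of −0.59 ± 0.12 (limma, adjusted P = 0.222), while its control samples at 2.99 and 2.96 lay between. RPS24 had 5.62 and 4.10 under heat stress and 2.66 and 2.62 with NMN and changed by −0.67 ± 0.17 (limma, adjusted P = 0.271). RPS25, known for its role in initiation at viral internal entry sites, had 2.11 and 3.53 under heat stress and 1.16 and 0.696 with NMN and changed by −0.97 ± 0.22 (limma, adjusted P = 0.233), in a listed locus shared with 2 other genes. In all 3 genes the samples of the groups did not overlap. These 3 calls held with any 1 sample left out. When all samples were scaled to the same summed nuclear FPKM, the calls of RPL37 and RPS24 were lost and that of RPS25 was kept. With LOC100513953 left out of that sum, all 3 were kept. RPL29 had a difference of the size of that of RPS25 (−0.97 ± 0.51) that did not pass, with 7.39 and 6.54 under heat stress and 5.19 and 1.65 with NMN. RPL7 likewise had −0.77 ± 0.38. Of the 44 members under 1 FPKM, 7 (15.9%) were lower and 4 (9.09%) higher without overlap, near the 17.7% and 12% of all genes in that range.

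The difference was largest between NMN-supplemented and control oocytes, 2 groups that differ in both heat and NMN. Here 17 of 37 members (45.9%) were lower at an unadjusted P under 0.05, against 15.7% of all tested genes, and RPL15 was the 1 higher, where 25.6% of all tested genes were higher. With an adjusted P under 0.05 in limma, 9 members (24.3%) were lower, against 9.17% of all tested genes, and 0 were higher, against 12.4% of all tested genes (RPL15 had a limma adjusted P of 0.120, and its unadjusted call was lost in 15 of 18 alternatives). Among the 9 were RPL6, RPL7, RPL10, RPL10A, RPL27 and RPLP1 of the large subunit and RPS24 and RPS25 of the small one. The log2 fold change was negative in 31 of 37 members (83.8%) and in 40.4% of all tested genes, with medians of −0.69 and 0.11. This comparison shares its samples with both others and is not independent of them. The adjusted calls depend on single libraries: without control sample 2, or without either heat stress+NMN sample, 0 members passed an adjusted P of 0.05 in limma (and 0, 1 and 1 genes in all), with 10, 14 and 11 members lower at the unadjusted P (27.0%, 37.8% and 29.7%, against 11.4%, 12.3% and 11.8% of all tested genes), and 4 members passed without control sample 1.

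RPL7 and RPL10 had the largest differences. RPL7 had 4.88 and 8.62 FPKM in control oocytes, 2.09 and 3.33 under heat stress and 1.89 and 0.604 with NMN, a log2 fold change from control to NMN of −1.81 ± 0.38 (limma, adjusted P = 0.0312). RPL10, a late-joining protein that reaches towards the catalytic centre, had 4.33 and 8.98 in control oocytes, 3.33 and 2.88 under heat stress and 2.07 and 1.26 with NMN, with −1.47 ± 0.32 (limma, adjusted P = 0.0347). In both genes the 3 groups followed each other without overlap. RPLP1 differed by −1.39 ± 0.23 (limma, adjusted P = 0.0237) and RPS25 by −1.28 ± 0.22 (adjusted P = 0.0238), where the control samples at 3.71 and 3.56 lay above the rest. RPS24, with control samples at 5.72 and 7.10, differed by −1.02 ± 0.17 (limma, adjusted P = 0.0237). RPS20 differed by −1.41 ± 0.43 and passed the unadjusted P only (limma, adjusted P = 0.0683), a call lost without control sample 1 (−1.29), control sample 2 (−1.54) or heat stress+NMN sample 1 (−0.86). RPL37 passed the unadjusted P only as well, and its call was lost without any 1 of the control or heat stress+NMN samples (−0.39 to −0.35). RPL10A differed by −0.99 ± 0.23 (limma, adjusted P = 0.0403), and its call was lost when its copies were added (−0.52; limma, adjusted P = 0.456). Of the 44 members under 1 FPKM, 23 (52.3%) were lower than control without overlap, against 26.1% of all genes in that range, and 0 were higher, against 13.7%.

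**Figure D4:**
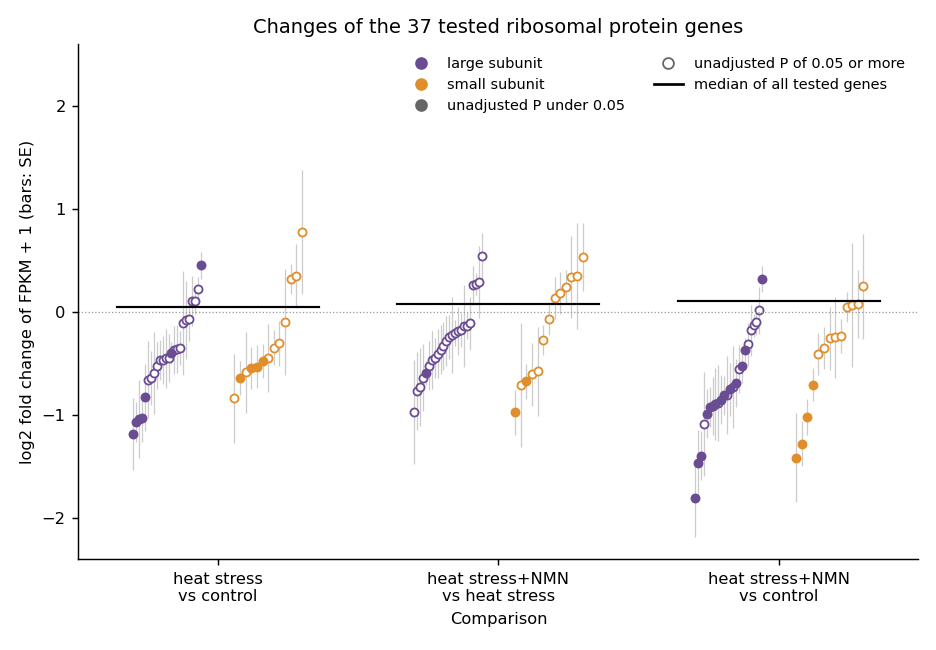
Log2 fold change of FPKM + 1 of the 37 tested ribosomal protein genes in the 3 comparisons, large subunit in purple and small subunit in orange, each ordered by its value; grey bars are the SE of the limma fit, filled points have an unadjusted P under 0.05 and the black line is the median of all 4713 tested genes. Most points lie below the black line in each comparison, and RPL15 is the filled point above 0 in the first and last.

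The 2 subunits were set side by side over their tested members. In heat-stressed against control oocytes, 6 of 24 large-subunit (25%) and 4 of 13 small-subunit genes (30.8%) were lower at the unadjusted P. Of all tested genes 10.1% were lower there, and both subunits had a median log2 fold change of −0.45. In NMN-supplemented against control oocytes, 13 of 24 (54.2%) and 4 of 13 (30.8%) were lower, against 15.7% of all tested genes. The medians were −0.78 and −0.26. From heat stress to heat stress+NMN the counts were 1 (4.17%) and 2 (15.4%), against 6.45% of all tested genes, with medians of −0.26 and −0.064. The difference between subunits was not tested, since their genes are not replicates. Members with the pyrimidine tract at the annotated start of their longest transcript (21 of the 37) had a median of −0.85 between NMN-supplemented and control oocytes. The 16 without it had −0.33, and 12 and 5 were lower. RPL15, which has pyrimidines at its other annotated start, was counted among the 16. For heat stress the medians were −0.45 and −0.41, with 7 and 3 lower. From heat stress to heat stress+NMN they were −0.45 and −0.16, with 3 and 0 lower. The shares of all tested genes given above stand beside these counts too.

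The members have short transcripts, so other short transcripts are given beside them. Of 447 other tested genes with a longest transcript of up to 1000 nt, 17.9% were lower in heat-stressed and 27.7% in NMN-supplemented than in control oocytes, with median log2 fold changes of −0.20 and −0.29. The 22 tested members of that length had medians of −0.45 and −0.76. The part of transcript length in the members' values was not tested. Of the 25 tested copies, 7 (28%) were lower in heat-stressed and 12 (48%) in NMN-supplemented than in control oocytes, with 0 higher in either. Their medians were −0.49 and −0.86. Of all tested genes, 10.1% and 15.7% were lower and 12.7% and 25.6% higher. When the FPKM of the copies was added to the member they match, 53 members reached a mean of 1. Of these, 17 were lower and 1 higher in heat-stressed than in control oocytes at the unadjusted P. In NMN-supplemented against control oocytes 24 were lower and 0 higher. The share of all genes called in the fit with copies added is not given here, so these last counts have no background beside them. With copies added, the log2 fold change of RPL23A became −1.0 in heat-stressed against control oocytes, compared with −0.45 for the gene alone.

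Genes that act with the ribosomal proteins were counted by lists chosen with earlier results of these data known. Of 7 tested genes known for TOP mRNAs that encode no ribosomal protein, 2 (28.6%) were lower in heat-stressed and 5 (71.4%) in NMN-supplemented than in control oocytes. Of all tested genes, 10.1% and 15.7% were lower. Of the 7, 0 were higher in either comparison, against 12.7% and 25.6% of all tested genes. EEF1A1, the elongation factor that brings tRNA, led them with 107 and 106 in control oocytes, 74.9 and 70.1 under heat stress and 52.9 and 57.0 with NMN, stepwise and without overlap (limma, adjusted P = 0.0210 for NMN-supplemented against control). EEF2, the translocation factor, fell between NMN-supplemented and control oocytes by 1.21 on the log2 scale (limma, adjusted P = 0.0223).

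Ribosome assembly factors were called in both directions. Of 35 tested, 5 were lower and 6 higher in heat-stressed and 10 lower and 9 higher in NMN-supplemented than in control oocytes. The higher shares were 17.1% and 25.7%, against 12.7% and 25.6% of all tested genes, and the lower shares 14.3% and 28.6%, against 10.1% and 15.7%. NCL (nucleolin) had 5.85 and 5.24 FPKM in control oocytes, 3.29 and 1.80 under heat stress and 1.86 and 2.35 with NMN. DDX21, a nucleolar helicase, went the other way, with 41.0 and 35.5, 50.4 and 57.0, and 76.3 and 71.2 in the same order (limma, adjusted P = 0.0210 for NMN-supplemented against control). PPAN fell by 1.27 on the log2 scale in that comparison (limma, adjusted P = 0.0210). Of 6 tested genes of RNA polymerase I and its factors, 1 (16.7%) was lower and 0 higher in heat-stressed than in control oocytes. In NMN-supplemented against control oocytes 2 (33.3%) were lower and 1 (16.7%) higher, beside the same shares of all tested genes. POLR1D, a subunit shared by RNA polymerases I and III, had 31.0 and 37.6 in control oocytes, 27.0 and 20.9 under heat stress and 11.9 and 14.0 with NMN (limma, adjusted P = 0.0210 for NMN-supplemented against control).

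The mitochondrial ribosome gave smaller counts. Of 34 tested genes, 5 (14.7%) were lower and 1 (2.94%) higher in heat-stressed than in control oocytes, against 10.1% and 12.7% of all tested genes. In NMN-supplemented against control oocytes 10 (29.4%) were lower and 1 (2.94%) higher, against 15.7% and 25.6%. The median log2 fold changes were −0.26 and −0.27. A difference between the cytosolic and mitochondrial genes was not tested. MRPL54 (log2 fold changes of −0.96 and −1.50) and MRPL36 (−0.91 and −1.83) were lower in both comparisons, and MRPS16 (0.64 and 0.86) was higher in both.

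The labelled cell type was checked by its markers. The 19 oocyte markers in the table had a median of 30.9 FPKM, and 17 were tested. Their sums were 3927 to 4192 in control oocytes, 3895 to 3897 under heat stress and 3454 to 3766 with NMN. At the unadjusted P, 5 (29.4%) were lower in heat-stressed and 8 (47.1%) in NMN-supplemented than in control oocytes. Of all tested genes 10.1% and 15.7% were lower, and of the tested members 27.0% and 45.9%. Higher were 1 (5.88%) and 2 (11.8%) of these markers, against 12.7% and 25.6% of all tested genes. Of 27 markers of cumulus and granulosa cells, 3 were tested and 6, among them AMH, INHA and KRT8, were listed at 0 throughout. Their sums were 18.8 to 22.2 in control oocytes, 13.7 to 16.7 under heat stress and 12.1 to 17.9 with NMN, and so were highest in control. The 3 tested markers mostly went the other way, with median log2 fold changes of 0.17 in heat-stressed and 0.34 in NMN-supplemented against control oocytes. At the unadjusted P, 1 was higher and 0 lower in the first comparison, and 2 were higher and 1 lower in the second. The part of these cells in the ribosomal protein values was not tested. Markers of blood and immune cells summed to at most 0.518 and of endothelium to at most 0.382 FPKM in any sample.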

How the data were processed

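RNA from pooled oocytes, 2 samples each of control, heat stress and heat stress+NMN, was sequenced. According to the methods the authors trimmed reads with cutadapt and aligned them to susScr11 with tophat2, and the submitters' processing notes name Cufflinks 2.2.1, Cuffnorm and Cuffdiff. The authors deposited FPKM for 29861 genes and 6 samples. Their columns of log2 fold changes, p-values and q-values, and 2 lists of differential genes, were not used. Read counts were not used here, so depth is unknown and no counting interval is given.

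After adding 1 FPKM, values were put on a log2 scale, which understates changes of low genes. Genes with a mean of at least 1 FPKM (4713, of which 37 members) were fitted with limma 3.58.1 in R 4.3.3, 3 groups in one model with a variance trend, and adjusted by Benjamini-Hochberg. The code was tested on simulated data. Transcripts and starts came from RefSeq Sscrofa11.1, and copies from blastn 2.17.0. RPL18 is annotated at 2 loci. Members and lists were chosen with earlier results of these data known. Named were the 5 highest genes per subunit, members with an unadjusted P under 0.05 (the 6 most changed in each direction where over 12), the 3 most changed, 3 on each side of 1 FPKM, members at 0, paralogs and, per list, the 2 smallest P. Any other gene was picked with its values known. The alternatives were another pseudocount, minimum, scaling or moderation, a replicate block, only the compared groups, leaving out each sample, adding copies, and leaving out RPL15, paralogs or shared loci. Single genes of some counts are not reported here.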

Additional observations from a re-analysis of the deposited data

How the results depend on the processing

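The medians of the tested members stayed negative in every alternative but one. With all samples scaled to the same summed nuclear FPKM, the median for NMN-supplemented against heat-stressed oocytes turned to 0.0388 (from −0.2437), with all tested genes at 0.354, and that for heat stress against control was −0.6684. The scaling is set by LOC100513953 in heat stress sample 1, and without that gene both kept their sign. With a minimum mean of 0.1, of 5 or of none, the members called at an unadjusted P under 0.05 were 19, 4 and 18 for heat stress against control (11 as reported), 5, 0 and 5 for NMN-supplemented against heat-stressed (3) and 32, 5 and 32 for NMN-supplemented against control oocytes (18), as 72, 10 and 81 members were then tested. The medians were −0.3541 and −0.329, −0.1331 and −0.1208, and −0.4238 and −0.3473 at 0.1 and none, and −0.3847 at 5 for NMN-supplemented against heat-stressed oocytes. A pseudocount of 0.1 gave −0.7875 for NMN-supplemented against control oocytes. With only the compared groups, 6 members were called for NMN-supplemented against heat-stressed oocytes. With copies added, chosen after seeing the data, 18 and 8 were called in the first 2 comparisons. The shares of all tested genes called in these alternative fits are not given here, so these counts have no background beside them. Leaving out each sample gave 6 to 16, 5 to 11 and 10 to 21 calls in the order above, with medians of −0.4621 to −0.3764, −0.2437 to −0.1684 and −0.7192 to −0.4523. The number of members called depended on the sample left out. It fell without control sample 2 in both comparisons with control, and without heat stress+NMN sample 2 for NMN-supplemented against control oocytes. For NMN-supplemented against heat-stressed oocytes it rose without heat stress+NMN sample 1 and without heat stress sample 2. A lone sample was assumed to vary like the other groups.

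The log2 ratio of large to small subunit FPKM was 0.054, 0.0784 and 0.1324 in the 3 comparisons, became −0.2574, −0.0201 and −0.2775 without RPL15 (chosen after seeing the data) and 0.0086, 0.2357 and 0.2444 without members of shared loci. Leaving out single samples gave 0.0209 to 0.0872, 0.0452 to 0.1115 and 0.1017 to 0.1631. Same-numbered samples did not deviate together (r of −0.032, −0.0139 and 0.00805 over 4713 genes). With the replicate block 11, 4 and 17 members were called, again with no share of all tested genes beside them. The calls of named genes were kept in 397 tests under these alternatives and lost in 88, and 0 changed direction. At the unadjusted P, those between NMN-supplemented and control oocytes held in every alternative that tested the gene for RPL7, RPL10, RPL27, RPLP1, RPS24 and RPS25. The cause of these shifts was not tested beyond the number of genes tested.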

Other observations

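Genes that store or clear ribosomes were higher where they were called. Of 13 tested, 2 were higher in heat-stressed and 7 in NMN-supplemented than in control oocytes at an unadjusted P under 0.05, 3 of the latter at an adjusted P under 0.05 in limma, and 0 were lower in either. SERBP1, which holds inactive ribosomes, had 11.6 and 9.33 FPKM in control oocytes, 15.1 and 13.2 under heat stress and 17.7 and 16.7 with NMN (limma, adjusted P = 0.0328 for NMN-supplemented against control). ZNRF2 rose by 0.52 ± 0.11 on the log2 scale (limma, adjusted P = 0.0331) and OTUD3, a deubiquitinase, by 0.85 ± 0.22 (adjusted P = 0.0470) in the same comparison. ZNF598, the ligase that marks collided ribosomes, had 15.9 and 16.2 under heat stress and 21.6 and 20.9 with NMN, and passed the unadjusted P only (limma, adjusted P = 0.277). Among 5 tested genes for control of TOP mRNAs, 1 was higher in heat-stressed and 4 in NMN-supplemented than in control oocytes, with LARP1B, LARP4 and LARP4B among the latter and 0 lower. LARP1 itself had a mean below 1 FPKM and was not tested. These counts stand beside 12.7% of all tested genes higher and 10.1% lower in heat-stressed than in control oocytes. In NMN-supplemented oocytes 25.6% were higher and 15.7% lower.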
